A study of Homo sapiens with 22 samples.

Results

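The comparison described here sets 2 libraries of 786-M1A cells carrying the CRISPR interference guide labelled iMAE-126 against SC replicates 1 and 2, which carry the guide labelled SC and served as controls. These 4 libraries were taken by their titles from 22 in the series, and the comparison was made across every gene of the deposited tables. The series profiled polyadenylated RNA of human renal cancer lines in a study of enhancers in metastatic cancer. 786-M1A is an established renal cancer line, known from earlier work as a metastatic derivative of its parental line, and all cells were grown in RPMI with 10% serum. The other 786-M1A libraries under CRISPR interference were SC replicates 3 to 6 and 8 libraries of the guides iMAE-1.1 and iMAE-1.2, which serve only to place the iMAE-126 values. The labels do not name the element or gene that iMAE-126 targets, nor whether the repressor line was 1 clone. They also do not say whether replicates were separate cultures, so the p-values given here rest on library-to-library spread alone, part of which may be technical.

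In CRISPR interference a Cas9 that cannot cut DNA is brought by a guide RNA to a chosen site, where a repressor domain fused to it silences the promoter or enhancer. An enhancer is a stretch of DNA that raises transcription of a gene that can lie far away, so silencing one lowers its target and, through the target, further genes. Clear cell renal carcinoma cells usually lack VHL function and run a constitutive hypoxia program through HIF2A, the product of EPAS1. CXCR4, a chemokine receptor, and CYTIP, a cytohesin-binding protein otherwise typical of lymphoid cells, are genes that earlier work linked to metastasis of this line.

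Depth, in units of 1e6 counts, was 24.4 and 15.3 in SC replicates 1 and 2, and 19.9 and 36.2 in the iMAE-126 libraries. The 6 SC libraries did not form 1 group. SC replicates 1 and 2 differed from SC replicates 3 to 6 by a median of 0.305 to 0.344 on the log2 scale over genes, more than they differed from the iMAE-126 libraries (0.206 to 0.255). The spread within SC replicates 1 and 2 was 0.135 and within iMAE-126 0.110. The mean length of the genes that counts fell on was 3646 and 3716 bases in SC replicates 1 and 2, 3528 and 3573 in iMAE-126, and 3264 to 3395 in SC replicates 3 to 6. The labels name no library set, so what separates these SC libraries was not tested here. For this reason many values below are also placed against SC replicates 3 to 6. A gene is said to lie beyond all 6 controls where both iMAE-126 libraries were above, or both below, every SC library. That is a description and not a test. Of the renal carcinoma markers, PAX8, EPAS1, CA12 and VIM were present in every library, with PAX8 at 245 and 237 CPM, a gene's share of a library's scaled total times 1e6, in SC and 263 and 242 in iMAE-126. Leukocyte markers summed to 7.87 to 11.9 CPM, endothelial markers to 2.16 to 4.23 and fibroblast markers to 2.16 to 3.14, with CD3E, TYROBP, LCP2, DCN and PDGFRA at 0 in all 4 libraries. Of the endothelial markers PECAM1, an adhesion molecule, rose from 1.23 and 0.867 CPM to 3.31 and 2.70, a call lost without iMAE-126 replicate 1. Neural markers summed to 263 and 257 CPM in SC and to 215 and 226 in iMAE-126, nearly all of it TUBB3, whose lower call was also lost without iMAE-126 replicate 1. In bulk RNA, fewer cells of a state and less RNA per cell cannot be told apart.

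Of 14941 genes tested, 3636 (24.3%) were called at an adjusted p under 0.05, with 1547 (10.4%) higher and 2089 (14%) lower in iMAE-126 than in SC replicates 1 and 2. Most differences were small, with a median size of 0.42 on the log2 scale among the called genes and a median of 0.01 over all genes tested. A difference of at least 1 on the log2 scale was reached by 247 called genes that were higher and 57 that were lower. In all 3636 the 2 iMAE-126 libraries did not overlap the 2 SC libraries. A call on 2 libraries per group nearly requires this, so it adds no support to the calls. Beyond all 6 controls lay 854 of the genes called higher (5.72% of those tested) and 1149 of those called lower (7.69%), together 55.1% of the calls. With the spread taken from all 16 CRISPR interference libraries 37 of 158 named genes were no longer called. With all 6 SC replicates as controls 58 were no longer called with their sign unchanged, and 26 changed sign. With SC replicates 3 to 6 these counts were 32 and 52. In both settings some genes that changed sign were not called either. The 158 named genes, and the 52 that changed sign with SC replicates 3 to 6, include CYTIP, PAX8, VHL and MYH10. These genes were not called against SC replicates 1 and 2. A list member is said below to have kept its call where it was called in the same direction with each of the 4 libraries left out in turn. List counts below are to be read beside the shares over all genes tested, 10.4% higher and 14% lower. A gene's length moved with its direction. Over 3 equal groups of genes by length, 13.2% of the shortest were higher and 6.44% lower, and of the longest 8.25% were higher and 21.6% lower.

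**Figure D1:**
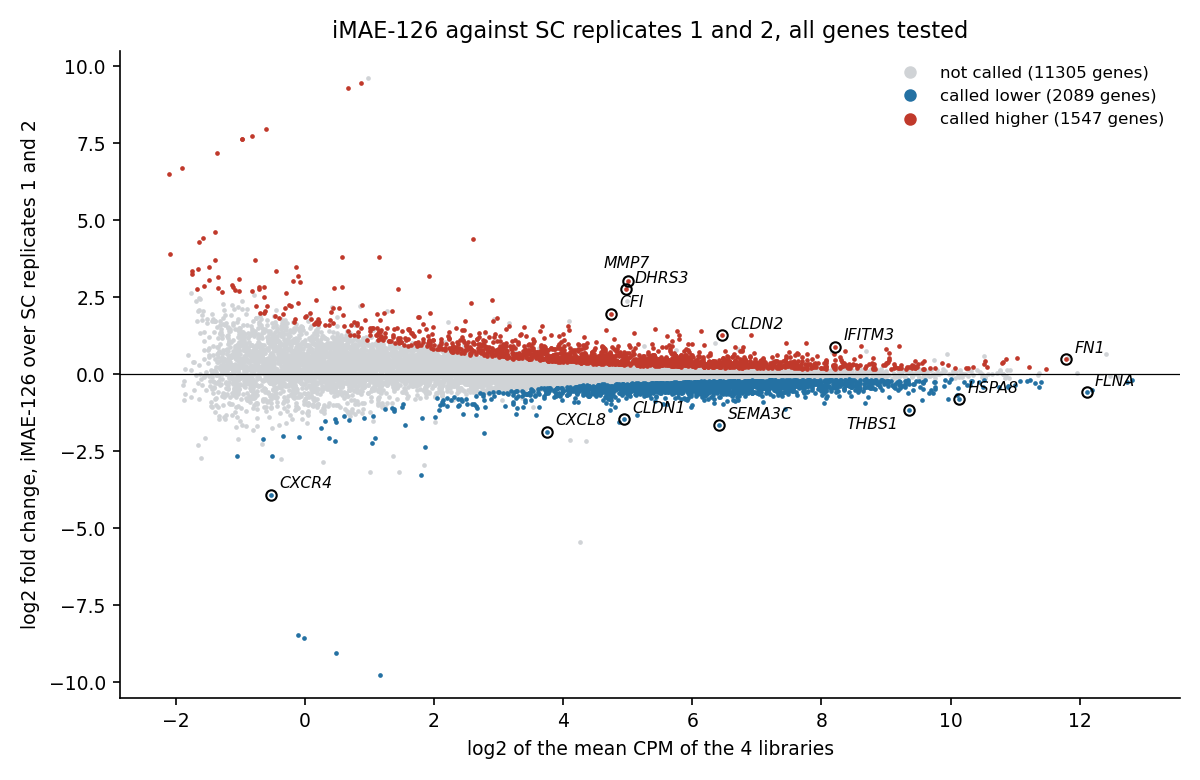
Each point is 1 of the genes tested, with the log2 of its mean CPM over the 4 libraries on the x axis and its fitted log2 fold change on the y axis. Red points are the 1547 genes called higher, blue points the 2089 called lower, and 13 red and blue points of at least 6.51 in size are genes with 0 counts in a group, whose fitted values are not bounds.

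The gene with the clearest rise was MMP7, a small secreted matrix protease (matrilysin) of injured epithelia. It stood at 6.99 and 7.14 CPM in SC replicates 1 and 2 and at 53.9 and 60.5 CPM in the iMAE-126 libraries. Both iMAE-126 libraries were far above every control, since SC replicates 3 to 6 lay at 5.68 to 8.49 CPM. The log2 fold change was 3.04 ± 0.12 (standard error of the fit, as throughout; adjusted p = 8.36e-11, edgeR), an 8.202-fold difference. DHRS3, an enzyme that reduces retinal to retinol and limits retinoic acid synthesis, was at 8.18 and 8.205 CPM in SC and at 48.5 and 60.7 in iMAE-126. It too was above SC replicates 3 to 6 (8.18 to 12.6 CPM). Its rise was 2.76 ± 0.13 on the log2 scale (adjusted p = 6.53e-10). CFI, a protease that inactivates complement C3b and C4b, rose from 9.62 and 12.5 CPM to 43.5 and 41.4 (1.97 ± 0.13, adjusted p = 4.17e-08), and FXYD2, the kidney regulator subunit of the sodium pump, from 1.57 and 1.53 CPM to 5.84 and 6.45 (2.00 ± 0.29, adjusted p = 0.000112). These 4 genes were separated from all 6 controls.

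Of the 10 largest rises among genes with a group mean of at least 5 CPM, the other 6 are less certain. KIAA0408 (4.38), C18orf32 (2.42) and TIAF1 (1.86) overlap or share exons with a neighbouring gene, GGTLC2 (3.19) belongs to a family of near-identical gamma-glutamyltransferase copies, and expected counts split shared reads among such genes. All 4 lay at or above the iMAE-126 level in part or all of SC replicates 3 to 6. KIAA0408 was at 0.424 and 0.734 CPM in SC replicates 1 and 2, at 15.1 and 8.09 in iMAE-126, and at 19.5 to 26.4 in SC replicates 3 to 6. LOC100422737 (2.31) and ZMIZ1-AS1 (1.85), an antisense transcript, were above all 6 controls, but whether reads were counted by strand is unknown here.

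SEMA3C, a secreted guidance cue of the class 3 semaphorins, showed the tightest of the large falls. It was at 125 and 135 CPM in SC replicates 1 and 2 and at 40.7 and 40.8 CPM in iMAE-126, below SC replicates 3 to 6 (173 to 196 CPM). The log2 fold change was -1.66 ± 0.08 (adjusted p = 6.53e-10), a level 3.16-fold lower. CLDN1, a claudin of tight junctions, was at 48.9 and 41.6 CPM in SC and at 15.0 and 17.3 in iMAE-126 (-1.46 ± 0.12, adjusted p = 2.86e-07). PTX3, a soluble pattern recognition protein, was at 11.3 and 10.4 CPM in SC and at 2.63 and 3.08 in iMAE-126 (-1.90 ± 0.22, adjusted p = 1.56e-05). PTGER4, a prostaglandin E2 receptor (-1.38), and IL7R, the interleukin 7 receptor chain (-1.33), also fell, and all 5 of these genes lay below all 6 controls. For IL7R the call was lost with all 6 SC replicates as controls (adjusted p = 0.0704). Among the 10 largest falls, SENP3-EIF4A1 (-3.26) and BIVM-ERCC5 (-1.54) are read-through genes that share exons with their partners, and RGPD6 (-2.37) belongs to a family of near-identical copies, so their counts are uncertain. RGPD6, BIVM-ERCC5 and ZCCHC5 (-1.43) were not below all 6 controls.

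**Figure D2:**
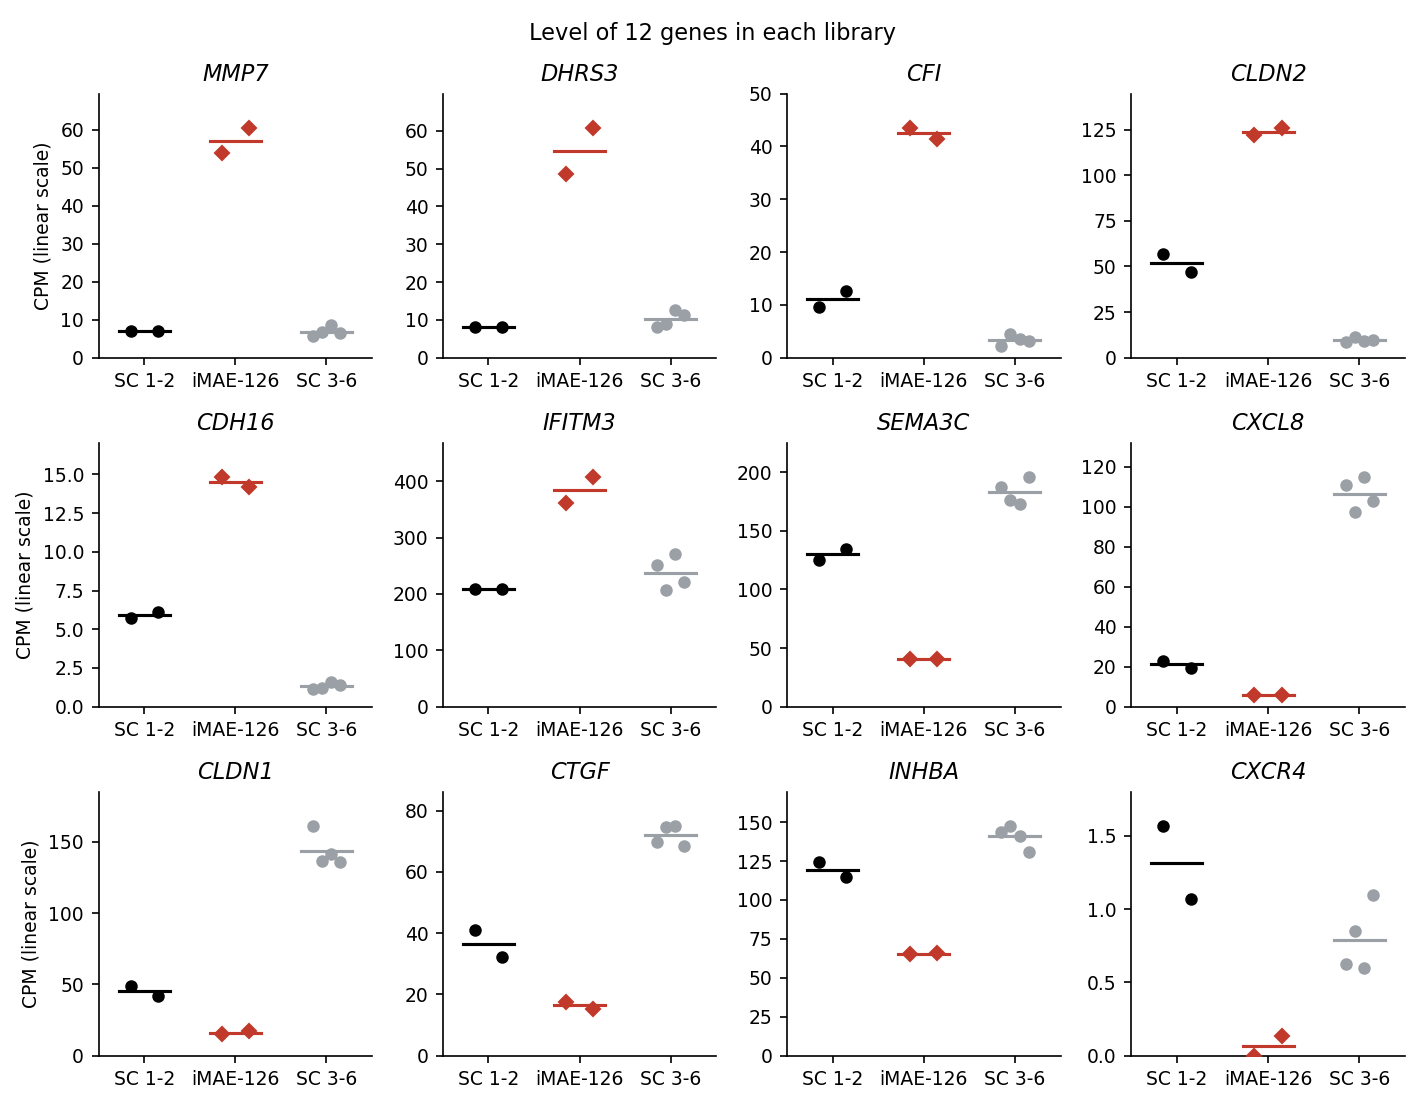
Level in CPM (linear axis from 0) of 12 genes in SC replicates 1 and 2 (black), both iMAE-126 libraries (red diamonds) and SC replicates 3 to 6 (grey), with a line at each group's mean. In all 12 genes both iMAE-126 libraries lie above or below all 6 SC libraries. For genes such as CXCL8, CTGF, CLDN1, CLDN2 and CDH16 the 2 sets of SC libraries are far apart.

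In absolute terms the largest differences were in abundant genes. FN1, fibronectin, was at 2904 and 3018 CPM in SC replicates 1 and 2 and at 3799 and 4476 in iMAE-126 (0.50 ± 0.07, adjusted p = 0.000114). MALAT1, a nuclear noncoding RNA, APOL1, a lipoprotein component, CD24, a surface glycoprotein, and GNAS, the stimulatory G protein subunit, rose by 0.37 to 0.51 on the log2 scale. FN1, MALAT1, APOL1 and CD24 lay above all 6 controls, while GNAS overlapped SC replicates 3 to 6. Against those libraries GNAS was not called (0.08, adjusted p = 0.558). With all 6 SC replicates as controls neither GNAS (adjusted p = 0.375) nor CD24 (0.0635) was called. The cytoskeletal genes FLNA, ACTG1, ACTB, VIM and MYH9 fell by 0.20 to 0.58. FLNA, filamin A, was at 5443 and 5149 CPM in SC and at 3346 and 3669 in iMAE-126. ACTG1 and ACTB lay below all 6 controls, while FLNA, VIM and MYH9 overlapped SC replicates 3 to 6. The fall of VIM lost its call without iMAE-126 replicate 1. With the spread of 16 libraries FN1 (adjusted p = 0.102), MALAT1 (0.110), ACTB (0.0646) and VIM (0.126) were not called.

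CXCR4 was low in all libraries and lower still under iMAE-126. It was at 1.57 and 1.07 CPM in SC replicates 1 and 2 (53 counts in sum), at 0 and 0.136 CPM in iMAE-126 (5 counts in sum) and at 0.602 to 1.09 CPM in SC replicates 3 to 6. Both iMAE-126 libraries were below all 6 controls, and the fitted log2 fold change was -3.90 ± 0.85 (adjusted p = 0.00278). By counts alone the level was 15.7-fold lower, with an exact 95% interval of 6.34 to 50.4 that covers counting error only. CYTIP was at 10.2 and 8.67 CPM in SC and at 7.59 and 6.89 in iMAE-126 and was not called (-0.38 ± 0.19, adjusted p = 0.172).

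Around these loci the share called in either direction was near the 24.3% over all genes tested. Against SC replicates 1 and 2 every call was lower, but this direction depended on the controls. Over all genes tested 10.4% were higher and 14% lower. Of 13 tested genes at the CXCR4 locus on chromosome 2, CXCR4 included, none was higher and 3 were lower, namely CXCR4, MGAT5 (-0.54) and DARS (-0.29), with a list median of -0.19. Those 3 are 23.1% of the 13. Of 10 tested genes around CYTIP none was higher and 3 (30%) were lower, GALNT5 (-0.65), GPD2 (-0.40) and PKP4 (-0.22), with a median of -0.14. At the CXCR4 locus 6 were lower without SC replicate 1 and 2 without iMAE-126 replicate 2, and around CYTIP 1 was lower without SC replicate 2. MGAT5 and GALNT5 were above SC replicates 3 to 6. With those libraries as controls 3 genes at the CXCR4 locus were higher and 3 lower, with a median of 0.13. Around CYTIP 3 were then higher and none lower, with a median of 0.19. With all 6 SC replicates as controls 2 were lower at the CXCR4 locus and none was higher. Around CYTIP none was called in that setting. The calls of DARS, GPD2 and PKP4 were each lost without 1 or more single libraries. EPAS1, HIF1A, VHL and PAX8 were not called, with log2 fold changes between 0.04 and 0.20.

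Interferon response genes formed the largest group that was higher. They encode sensors of viral RNA, transcription factors of the interferon signal and antiviral effectors. Of 39 members, all tested, 28 were higher and none lower, with a median of 0.64 against 0.01 over all genes, and 24 of the 28 lay above all 6 controls. IFITM3, a membrane protein that blocks virus entry, was at 209 and 208 CPM in SC and at 361 and 407 in iMAE-126 (0.90 ± 0.07, adjusted p = 8.43e-08). STAT2, a subunit of the interferon-activated transcription factor, was at 79.6 and 77.5 CPM in SC and at 116 and 129 in iMAE-126 (0.66 ± 0.08, adjusted p = 1.41e-05). For these 2 genes the iMAE-126 libraries were close to each other and clear of SC. Among the 4 members named for size, IFITM1 rose by 2.06, ISG20 by 1.75, IFI27 by 1.75 and CMPK2 by 2.24 on the log2 scale, all from levels under 4 CPM. The calls of IFITM1, ISG20 and CMPK2 were lost without iMAE-126 replicate 2, and those of ISG20 and CMPK2 also without SC replicate 2. CMPK2 was not called with the spread of 16 libraries (adjusted p = 0.0535), nor ISG20 with all 6 SC replicates as controls (0.125). IFI27 differed from the other 3 in that SC replicates 3 to 6 (10.7 to 14.05 CPM) overlapped its iMAE-126 values of 9.05 and 14.2 CPM.

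All 39 interferon genes stood higher in iMAE-126 replicate 2 than in replicate 1. IFI6, a mitochondrial interferon-induced protein, was at 30.5 and 29.7 CPM in SC and at 62.1 and 96.1 in iMAE-126. IFI44L was at 10.2 and 7.004 CPM in SC and at 19.7 and 30.9 in iMAE-126, and the antiviral synthetase OAS2 at 5.26 and 3.80 CPM against 9.24 and 17.6. ISG15, a ubiquitin-like modifier, was at 59.9 and 48.8 CPM in SC and at 87.0 and 130 in iMAE-126, and with this spread it was not called (adjusted p = 0.0930). Of the 39 members 19 were higher without iMAE-126 replicate 2, 33 without iMAE-126 replicate 1, 24 without SC replicate 1 and 20 without SC replicate 2, and 12 of the 28 kept the call.

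The promoter of IFITM1 is shown for the interferon genes because it had the largest called rise of a member with a promoter that holds the interferon-stimulated response element. Promoters here are the 250 bases before the start of the gene, from RefSeq on GRCh38.p14, on the gene's strand. Capitals mark matches on either strand of GAAA, any 2 bases and GAAA, a common form of that element. This one lies at chr11:313790-314039 on the plus strand, and its match begins 40 bases before the start.

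IFITM1: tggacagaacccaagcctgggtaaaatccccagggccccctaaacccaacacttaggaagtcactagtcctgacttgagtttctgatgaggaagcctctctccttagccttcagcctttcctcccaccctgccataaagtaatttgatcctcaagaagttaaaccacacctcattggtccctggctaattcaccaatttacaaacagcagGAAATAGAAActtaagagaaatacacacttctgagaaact

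Of 42 promoters of interferon response genes 24 (57.1%) held this motif, against 3.02% of all 35116 promoters. By gene, 21 of 32 with a promoter held it in at least 1. Among the called genes 14 of 23 held it, and among those not called 7 of 9.

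Proteins of related defence pathways moved in part. Of 13 tested complement genes 4 were higher and none lower, with a median of 0.63. C3, the central component, was at 22.6 and 19.7 CPM in SC and at 36.3 and 34.3 in iMAE-126 (0.75 ± 0.11, adjusted p = 0.000174). C4B had 0 counts in SC replicates 1 and 2 and 58 in iMAE-126, at least 13.0-fold higher at a floor of 3 counts over the SC pair. C4B is nearly identical to C4A, which was not called (0.26 ± 0.28), and stood at 0.921 to 0.944 CPM in SC replicates 3 to 6, so its count is uncertain. Of 16 genes of class I antigen presentation 6 were higher and 1 lower, with a median of 0.15. HLA-F (0.51), PSMB9 (0.42), a subunit of the immunoproteasome, and PSMB8 (0.35) rose, and the peptide transporter subunit TAP2 fell (-0.32). Each of these 4 calls was lost without at least 1 of the libraries. No member of the list was called without iMAE-126 replicate 2, and 1 was higher and 1 lower with the spread of 16 libraries.

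Chemokines and cytokines under NF-kB, the transcription factor of inflammatory signalling, were lower. Of 25 tested NF-kB targets 14 were lower and 2 higher, with a median of -0.43, and 12 of the 14 lay below all 6 controls. CXCL8, the neutrophil chemokine was at 23.1 and 19.2 CPM in SC replicates 1 and 2, at 5.60 and 5.91 in iMAE-126 and at 97.5 to 115 in SC replicates 3 to 6. Its log2 fold change was -1.86 ± 0.16 (adjusted p = 6.82e-07), and the iMAE-126 libraries were the lowest of all. CXCL5, a related chemokine, was at 16.9 and 16.4 CPM in SC and at 9.05 and 7.05 in iMAE-126 (-1.05 ± 0.17, adjusted p = 0.000298), with SC replicates 3 to 6 at 72.1 to 94.6. IL6, a pro-inflammatory cytokine, was at 5.64 and 6.14 against 2.68 and 3.24 CPM (-0.97 ± 0.27, adjusted p = 0.0138), a call lost without iMAE-126 replicate 1. The adhesion molecule ICAM1 fell from 157 and 125 CPM to 85.1 and 85.3 (-0.71 ± 0.09, adjusted p = 3.69e-05) and the chemokine CCL2 from 13.2 and 11.3 CPM to 6.67 and 6.32 (-0.91 ± 0.18, adjusted p = 0.00166). CSF2, a myeloid growth factor, stood under 2 CPM in these 4 libraries (-2.65 ± 0.74, adjusted p = 0.0137), and its call was lost without SC replicate 1 or either iMAE-126 library. NFKBIA, the inhibitor that NF-kB induces in feedback, was not called (-0.12 ± 0.09). Counts of members that were lower ran from 8 without iMAE-126 replicate 1 to 12 without SC replicate 2, and 6 of the 14 kept the call.

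The promoter of CXCL5 is shown for the NF-kB targets, with the match of GGG, any 2 bases and TTTCC, a form of the kappa-B site, on either strand in capitals. It lies at chr4:73998678-73998927 on the minus strand, and the match begins 91 bases before the start.

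CXCL5: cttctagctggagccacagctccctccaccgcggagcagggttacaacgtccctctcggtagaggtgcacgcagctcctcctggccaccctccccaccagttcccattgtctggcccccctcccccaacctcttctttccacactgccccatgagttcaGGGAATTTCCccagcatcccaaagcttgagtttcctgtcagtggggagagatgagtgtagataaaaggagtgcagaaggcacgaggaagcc

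Of 39 promoters of NF-kB targets 13 (33.3%) held this motif, against 1.73% of all promoters. By gene, 12 of 26 with a promoter held it. Of the called ones 6 of 13 held it, and of those not called 5 of 8.

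Targets of YAP and TAZ, the coactivators of the Hippo pathway that respond to cell density and tension, were lower as a group. Of 21 members, all tested, 17 were lower and none higher, with a median of -0.40, and 9 of the 17 lay below all 6 controls. CTGF, a matricellular protein, was at 40.9 and 32.2 CPM in SC, at 17.6 and 15.4 in iMAE-126 and at 68.5 to 74.96 in SC replicates 3 to 6 (-1.15 ± 0.13, adjusted p = 1.16e-05). ANKRD1, a nuclear ankyrin repeat protein, was at 25.3 and 23.5 CPM against 13.2 and 12.8 (-0.90 ± 0.13, adjusted p = 0.000104), with SC replicates 3 to 6 at 87.3 to 91.5. Both genes were lowest in the iMAE-126 libraries, and ANKRD1 was not called with the spread of 16 libraries (adjusted p = 0.168). NT5E, an enzyme that makes adenosine outside the cell, fell by 0.97 on the log2 scale and reached 32.8 and 32.3 CPM, just under the 33.1 to 37.5 of SC replicates 3 to 6, against which it was not called (adjusted p = 0.408). CRIM1, a transmembrane regulator of BMP signals, fell by 0.93 from 329 and 362 CPM to 181 and 177, which is within the 170 to 202 of SC replicates 3 to 6. The count of lower members was 16 or 17 whichever single library was left out, and 16 kept the call. With SC replicates 3 to 6 as controls it was 8, and 4 were higher.

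The CTGF promoter is shown because it holds 3 matches of GGAATG, the core of the TEAD element through which YAP acts. It lies at chr6:131951373-131951622 on the minus strand, and the matches, in capitals, begin 169, 104 and 95 bases before the start.

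CTGF: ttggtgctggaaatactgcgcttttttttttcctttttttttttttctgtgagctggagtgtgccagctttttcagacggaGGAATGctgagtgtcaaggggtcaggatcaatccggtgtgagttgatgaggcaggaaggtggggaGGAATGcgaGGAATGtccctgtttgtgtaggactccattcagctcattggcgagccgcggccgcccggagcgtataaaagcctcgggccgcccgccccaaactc

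Of 17 promoters of YAP and TAZ targets 8 (47.1%) held GGAATG on either strand, against 11.9% of all promoters. By gene, 8 of 14 with a promoter held it. Of the called ones 7 of 11 held it, and of those not called 1 of 3.

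**Figure D3:**
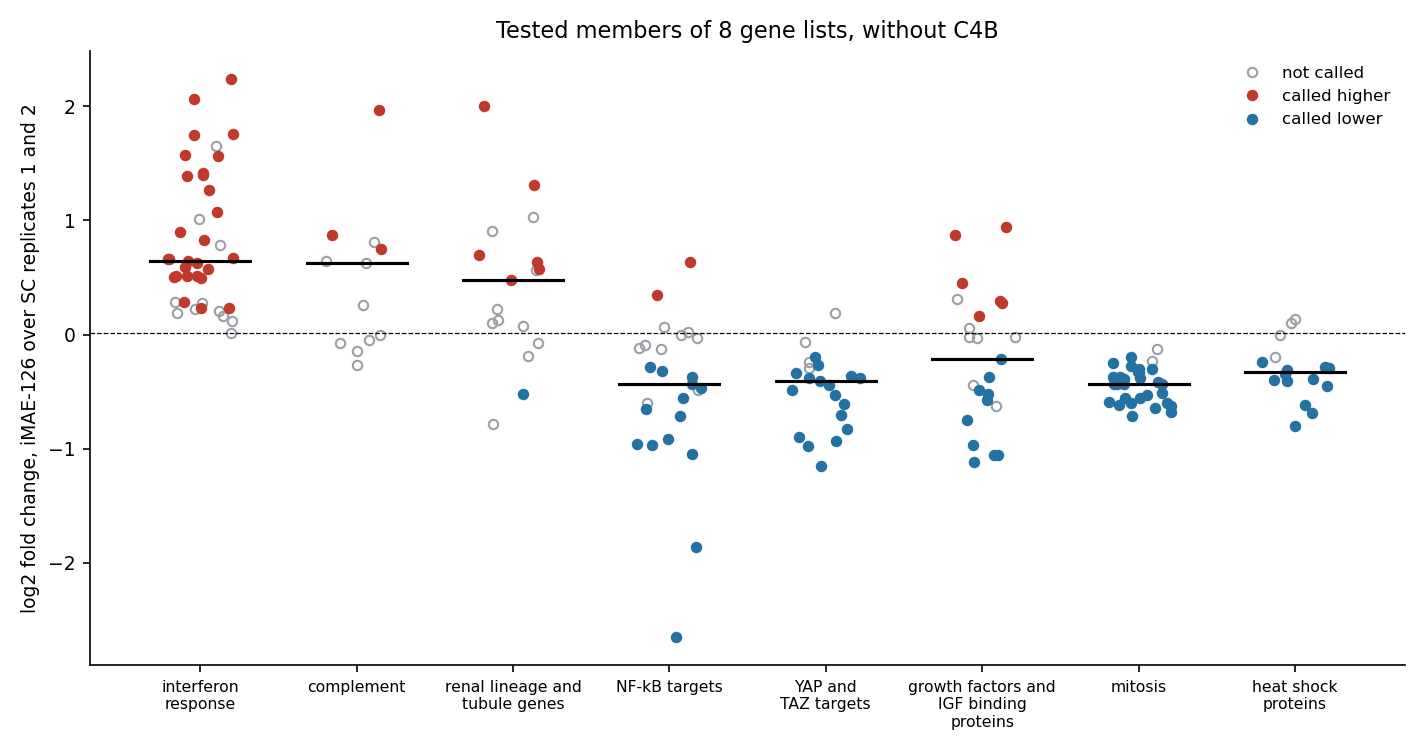
Fitted log2 fold change of each tested member (points) of 8 lists, with the list median as a bar and the median of all genes tested as a dashed line; C4B, with 0 counts in the SC pair, is left out of the points. Filled points are called genes, red higher and blue lower, and all 28 called interferon genes are above 0 while all 17 called YAP and TAZ targets and all 28 called mitosis genes are below it.

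Growth factors moved in both directions. Of 23 tested genes for growth factors and IGF binding proteins 10 were lower and 6 higher, of which 6 and 3 kept the call. HBEGF, EREG and AREG, ligands of the EGF receptor, were among those lower. HBEGF was at 14.8 and 13.5 CPM in SC and at 6.37 and 7.08 in iMAE-126 (-1.06 ± 0.17, adjusted p = 0.000337), and EREG at 79.6 and 91.0 against 42.8 and 38.7 CPM (-1.05 ± 0.10, adjusted p = 1.07e-06). AREG fell by 1.120 on the log2 scale from levels under 4 CPM, a call lost without SC replicate 1 or either iMAE-126 library. All 3 lay below all 6 controls. GDF15, a stress-induced member of the TGF-beta family, rose by 0.94 from 13.4 and 14.01 CPM to 23.6 and 28.1, above all 6 controls.

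The output genes of ERK, the kinase downstream of such receptors, gave 7 lower and 1 higher of 19 tested, with a median of -0.21. Of the 7 lower members 2 kept the call, and 3 were lower without iMAE-126 replicate 1. The feedback inhibitors SPRY2 (-0.81, a call lost without iMAE-126 replicate 1) and SPRED1 (-0.59) and the AP-1 subunit FOSL1 (-0.58, adjusted p = 0.158 with the spread of 16 libraries) fell. EGR1, an immediate-early transcription factor, rose from 4.66 and 4.002 CPM to 8.32 and 10.1 (1.097 ± 0.22, adjusted p = 0.00146) but stayed in or below the 8.99 to 25.1 of SC replicates 3 to 6. With the spread of 16 libraries EGR1 was not called (adjusted p = 0.211). Of 25 immediate-early genes 7 were lower (28%) and 4 higher (16%), against 14% and 10.4% of all genes tested. ZFP36, a protein that destabilises cytokine mRNA, rose by 0.68 and lay above all 6 controls.

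Of 27 tested genes of the TGF-beta and BMP pathway 7 were lower (25.9%, against 14% of all genes tested). The 3 that were higher (11.1%) were near the 10.4% over all genes. The ligand subunits INHBA, INHBB and TGFB2 fell. INHBA, the subunit of activin A, was at 124 and 115 CPM in SC and at 65.4 and 65.7 in iMAE-126 (-0.85 ± 0.08, adjusted p = 8.18e-07), below the 131 to 148 of SC replicates 3 to 6. Receptor tyrosine kinases gave 4 higher and 5 lower of 20 tested, of which 2 and 2 kept the call, with AXL (-0.71) and MET (-0.45) lower but still above SC replicates 3 to 6, and FGFR4 (0.51) higher and above all controls. MET was not called with the spread of 16 libraries (adjusted p = 0.131). With SC replicates 3 to 6 as controls 12 of 21 tested receptor genes were higher and 1 lower. With all 6 SC replicates 5 were higher and none lower. Of 18 tested WNT genes none was higher and 5 were lower, of which DKK3, FZD6, FZD7 and FZD1 were not below SC replicates 3 to 6. The calls of DKK3, FZD7 and FZD1 were lost without 1 or more single libraries, and of the 5 only 1 kept the call. With SC replicates 3 to 6 as controls 10 of the WNT genes were higher and 2 lower.

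Genes of mitosis were lower almost without exception. Of 30 members, all tested, 28 were lower and none higher, with a median of -0.43, and the 2 not called were AURKB (-0.23) and CDC25B (-0.13). KIF23, a kinesin of cytokinesis, was at 112 and 120 CPM in SC and at 72.7 and 74.1 in iMAE-126 (-0.64 ± 0.08, adjusted p = 1.79e-05), below the 106 to 115 of SC replicates 3 to 6. CENPA, the centromeric histone, was at 48.3 and 48.1 against 28.2 and 33.3 CPM (-0.63 ± 0.11, adjusted p = 0.000376). PLK1, a mitotic kinase, was at 195 and 201 against 116 and 129 CPM (-0.68 ± 0.07, adjusted p = 3.71e-06), and CENPE, a kinetochore motor, at 155 and 181 against 103 and 101 CPM (-0.71 ± 0.08, adjusted p = 1.04e-05). KIF23 and CENPA lay below all 6 controls, while PLK1 and CENPE overlapped SC replicates 3 to 6. Of the 28 called members 11 lay below all 6 controls. With SC replicates 3 to 6 as controls 11 were lower and 7 higher, and the median was -0.04. The count was 24 without either iMAE-126 library and 27 without either of SC replicates 1 and 2, and 22 kept the call. Of 35 genes of DNA replication 5 were lower (14.3%, against 14% of all genes tested) and 1 higher, with a median of -0.15. The ribonucleotide reductase subunits RRM2 (-0.46) and RRM1 (-0.41) were among those lower. This count depended on the setting. It was 4 with the spread of 16 libraries, 13 with an offset for gene length and 9 with limma on the deposited TPM values. With SC replicates 3 to 6 as controls 14 of the replication genes were lower and 2 higher. With all 6 SC replicates 9 were lower and none higher, with a median of -0.20. Of 21 p53 targets 6 were higher and 3 lower, of which 3 and 3 kept the call, and CDKN1A, the cell cycle inhibitor, was not called (0.04 on the log2 scale).

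The promoter of KIF23 is shown for the mitosis genes. It lies at chr15:69414099-69414348 on the plus strand and holds 1 match of TTTGAA, a form of the cell cycle homology element of genes expressed late in the cell cycle, which begins 55 bases before the start and is in capitals.

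KIF23: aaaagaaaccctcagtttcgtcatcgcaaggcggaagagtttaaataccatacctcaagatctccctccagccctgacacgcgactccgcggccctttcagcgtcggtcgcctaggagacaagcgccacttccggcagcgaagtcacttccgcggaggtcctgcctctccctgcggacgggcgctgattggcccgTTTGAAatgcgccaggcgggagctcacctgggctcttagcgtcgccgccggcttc

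Of 33 promoters of mitosis genes 14 (42.4%) held TTTGAA, against 13.3% of all promoters. By gene, 13 of 25 with a promoter held it. All 13 were among the 23 called ones, and neither of the 2 not called held it.

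Heat shock proteins, the chaperones that fold other proteins, were lower. Of 16 tested 12 were lower and none higher, with a median of -0.33, and 6 lay below all 6 controls. HSPA8, the constitutive HSP70, was at 1469 and 1393 CPM in SC and at 804 and 823 in iMAE-126 (-0.80 ± 0.06, adjusted p = 4.87e-08), below the 884 to 974 of SC replicates 3 to 6, against which it was not called (adjusted p = 0.123). HSPH1, a nucleotide exchange factor of HSP70, was at 427 and 440 against 267 and 265 CPM (-0.69 ± 0.06, adjusted p = 5.18e-07). HSPD1, the mitochondrial chaperonin, fell by 0.45 and was also below all controls. HSPA1A (-0.62), the inducible HSP70, has a near-identical copy in HSPA1B and overlapped SC replicates 3 to 6.

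Other stress programs were mixed. Of 25 genes of the ATF4 response and amino acid synthesis 11 were lower and 5 higher, with a median of -0.20, and 8 and 2 kept the call. The amino acid transporters SLC7A5, at 1068 and 976 CPM in SC and 647 and 693 in iMAE-126 (-0.59 ± 0.06, adjusted p = 3.43e-06), and SLC7A11 (-0.67 ± 0.12, adjusted p = 0.000501) were below all 6 controls, although SLC7A5 was not called with all 6 as controls (adjusted p = 0.167). ATF4 itself was not called (-0.01 ± 0.06), and NUPR1, a stress-induced chromatin protein, was higher (0.65), a call lost without SC replicate 2 or iMAE-126 replicate 2. Of 20 genes of the unfolded protein response none was higher and 7 were lower, with a median of -0.17. Of these 7 members 1 kept the call, since only 1 was lower without iMAE-126 replicate 1. With SC replicates 3 to 6 as controls 9 were higher and 4 lower. Of 23 NRF2 targets 8 were higher and 5 lower, of which 7 and 3 kept the call. The aldo-keto reductases AKR1C3 (1.54) and AKR1B10 (1.21) and the export pump ABCC3 (0.75) lay above all 6 controls. AKR1B10 was not called with the spread of 16 libraries (adjusted p = 0.363) or with all 6 SC replicates as controls (0.0635). AKR1C3 has near-identical family members. Of 5 metallothioneins, small metal-binding proteins that also resemble one another closely, 3 were lower (2 kept the call) and none higher, among them MT2A at 385 and 331 CPM in SC and 233 and 247 in iMAE-126.

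Genes of the renal tubule were higher in part. Of 17 tested 6 were higher and 1 lower, with a median of 0.48, and all 7 lay beyond all 6 controls. CDH16, the kidney-specific cadherin, was at 5.72 and 6.14 CPM in SC and at 14.8 and 14.2 in iMAE-126 (1.31 ± 0.18, adjusted p = 5.62e-05), above the 1.124 to 1.605 of SC replicates 3 to 6. PAX2, a transcription factor of kidney development, was at 11.8 and 12.2 CPM against 21.0 and 17.6 (0.70 ± 0.15, adjusted p = 0.0023), but was not called with all 6 SC replicates as controls (adjusted p = 0.114). FXYD2 (2.00), GGT1 (0.63), which has family copies, and LHX1 (0.48) were also higher, and WT1, a transcription factor of the glomerulus, was lower (-0.52). All 6 higher members kept the call when each of the 4 libraries was left out, while that of WT1 was lost without iMAE-126 replicate 1.

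Epithelial junction genes split, with 4 higher and 7 lower of 19. CLDN2, the claudin of leaky proximal tubule junctions, was at 56.7 and 47.0 CPM in SC, at 122 and 125.9 in iMAE-126 and at 8.55 to 11.2 in SC replicates 3 to 6 (1.27 ± 0.09, adjusted p = 4.49e-08). CLDN1, as given above, fell below all 6 controls. The 2 claudins went in opposite directions. CDH2, N-cadherin, was at 303 and 334 CPM against 193 and 201 (-0.68 ± 0.07, adjusted p = 2.44e-06), and CDH6, a fetal kidney cadherin, at 353 and 381 against 513 and 526 (0.51 ± 0.06, adjusted p = 1.67e-05). CDH1, E-cadherin, stood under 3 CPM and was not called (0.53 ± 0.41).

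Among mesenchymal genes 4 of 14 were lower and 1, FN1, higher. With SC replicates 3 to 6 as controls 6 of 13 tested were higher and 2 lower, and with all 6 SC replicates 2 and 2. THBS1, thrombospondin 1, was at 939 and 879 CPM in SC and at 382 and 426 in iMAE-126 (-1.15 ± 0.06, adjusted p = 3.09e-09), but SC replicates 3 to 6 lay at 400 to 433. Replicate 1 of iMAE-126 was therefore below all 6 controls, and replicate 2 lay within SC replicates 3 to 6. PLAUR, the urokinase receptor, was at 39.8 and 37.6 against 24.4 and 25.2 CPM (-0.63 ± 0.11, adjusted p = 0.000364) and below all controls. Matrix proteases and inhibitors gave 5 higher and 4 lower of 20, of which 2 and 3 kept the call, and MMP7 was the only called one among them past 1 on the log2 scale with over 5 counts in each group. MMP19 had 4 counts in the SC pair and 47 in iMAE-126, a ratio of 7.92 with an exact 95% counting interval of 2.89 to 30.2, and its call was lost without SC replicate 1 or either iMAE-126 library. Of 23 integrins and laminins 7 were lower and 2 higher. With SC replicates 3 to 6 as controls 11 were higher and 2 lower, and with all 6 SC replicates 1 was higher and 2 lower. LAMA5 rose by 0.95 to 93.5 and 96.7 CPM, not far above the 76.9 to 90.3 of SC replicates 3 to 6. It was not called against those libraries (0.16, adjusted p = 0.828), against all 6 SC replicates (0.602) or with the spread of 16 libraries (0.326). LAMB3 (-0.82), a chain of a basement membrane laminin, fell below all 6 controls.

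Metabolic groups showed little net change against SC replicates 1 and 2. With SC replicates 3 to 6 as controls 14 of 28 HIF targets were higher and 4 lower. In that setting 10 of 19 glycolytic genes were higher and none lower, and of 31 sterol and fatty acid genes 5 were higher and 9 lower. Of 28 HIF targets 7 were lower and 5 higher, with a median of -0.05, and 2 and 3 kept the call. NDRG1, a hypoxia and differentiation marker, was at 402 and 408 CPM against 630 and 669 (0.70 ± 0.06, adjusted p = 4.16e-07), with SC replicates 3 to 6 at 76.8 to 91.5. Of 19 glycolytic genes 4 were lower (HK1, PGK1, ENO1 and PGAM1, by 0.16 to 0.35) and none higher, none of the 4 lay below all 6 controls, and the calls of PGK1, ENO1 and PGAM1 were lost without single libraries and with the spread of 16. Of 31 genes of sterol and fatty acid synthesis 10 were higher and 3 lower with a median of -0.01, and 6 and 1 kept the call. SCD, the stearoyl-CoA desaturase, rose from 350 and 393 CPM to 610 and 684 (0.82 ± 0.07, adjusted p = 1.33e-06) and lay above all 6 controls, while SREBF1, the regulator of lipid synthesis, rose by 0.75 to levels within SC replicates 3 to 6.

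Small differences in short, abundant transcripts changed with an offset for gene length and with the controls. Of 45 ribosomal protein genes 16 were higher and none lower, with a median of 0.13, and of 40 respiratory chain genes 12 were higher and 1 lower, with a median of 0.11. With an offset for gene length these became 2 higher and 3 lower, and 3 higher and 5 lower. With limma on the deposited TPM values they were 3 higher and none lower, and 8 higher and 3 lower. With SC replicates 3 to 6 as controls they were 2 higher and 14 lower, and 5 higher and 11 lower. Whether gene length was the cause of these differences was not tested. Leaving out each library in turn, 3 of the 16 ribosomal and 5 of the 12 respiratory genes kept the call. Of the called members 1 ribosomal gene and no respiratory gene lay above all 6 controls. Of 30 HOX genes 11 were higher, 1 of which lay above all 6 controls, and with SC replicates 3 to 6 as controls 9 were lower and 1 higher. Of the 11 HOX genes 2 kept the call, and 3 were higher without iMAE-126 replicate 1. Of 13 transcripts sensitive to RNA handling 3 were higher (MALAT1, SNHG8 and SNHG5), and the part of RNA handling in these results was not tested.

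**Figure D4:**
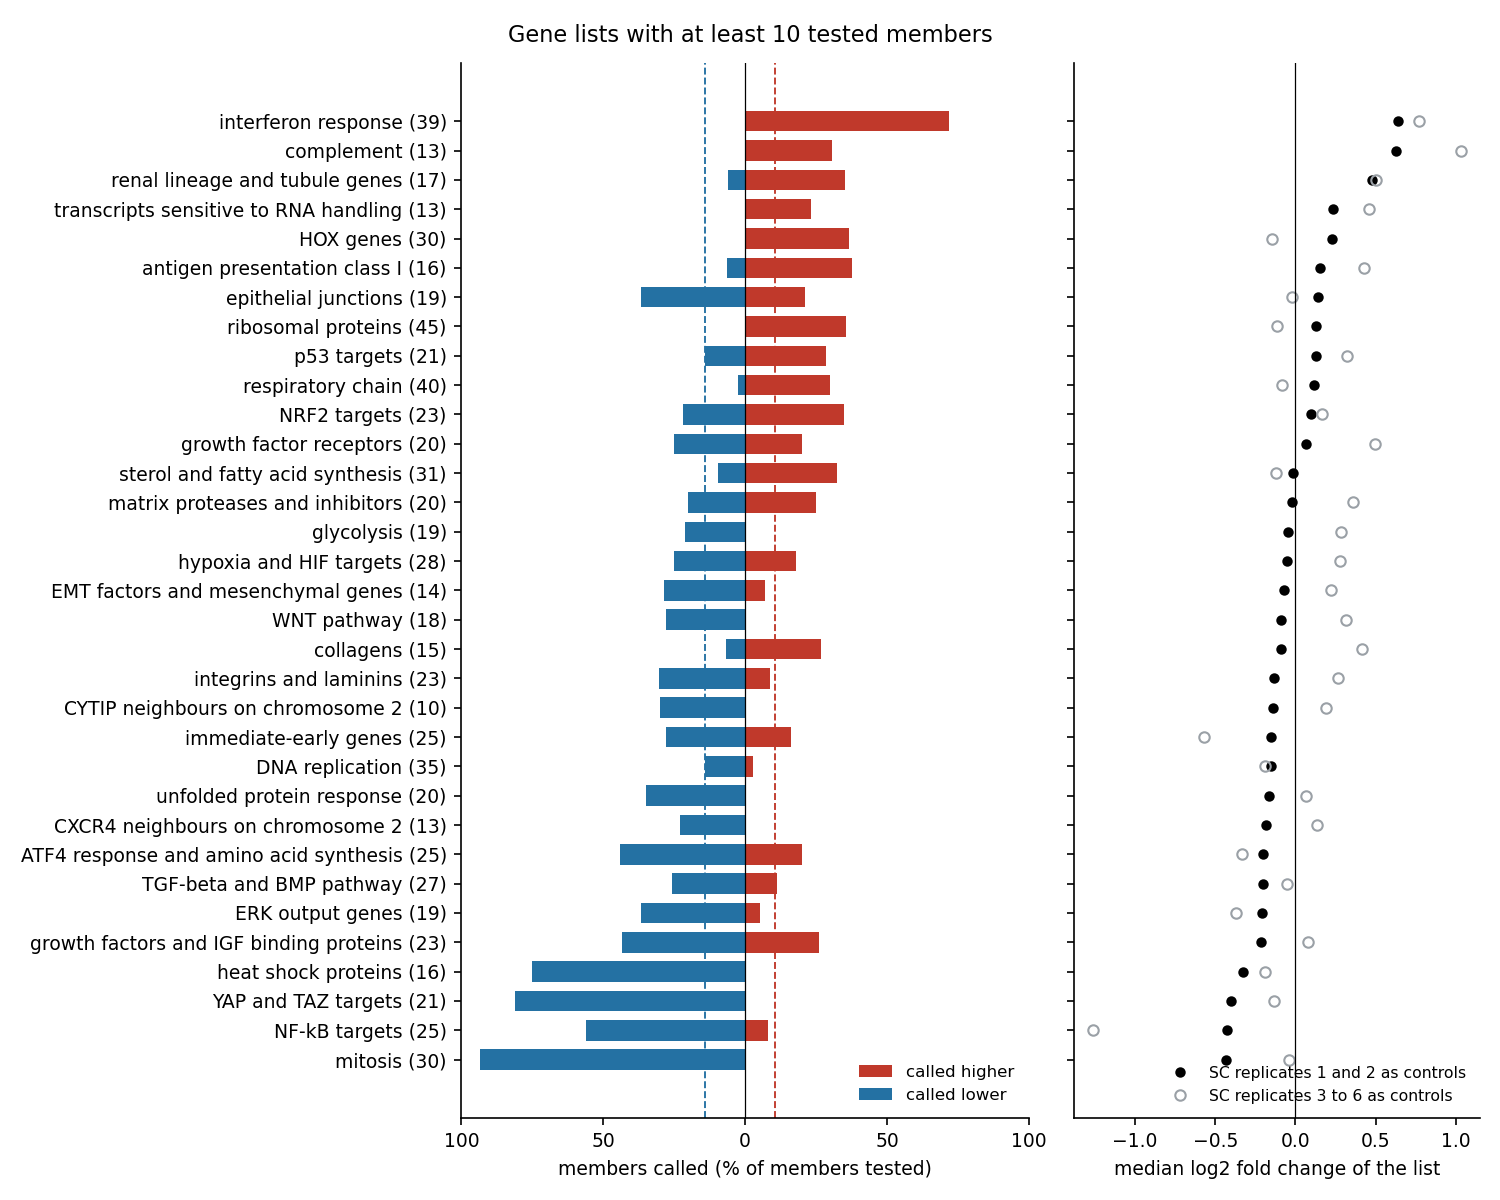
Left, share of the tested members of each of 33 lists (number in brackets) that were called higher (red) or lower (blue), with dashed lines at the shares over all genes tested, 10.4% and 14%. Right, median log2 fold change of the list with SC replicates 1 and 2 as controls (black) and with SC replicates 3 to 6 (open grey); interferon, complement and renal tubule genes stay above 0 with both, and the mitosis median moves from -0.43 to -0.04.

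The effect of iMAE-126 was also compared with that of the 2 iMAE-1 guides, each against its own controls, SC replicates 1 and 2 for the former and SC replicates 3 to 6 for the latter. No control library was shared. In the fit of 16 libraries, which tested 15254 genes, 964 were higher (6.32%) and 1590 lower (10.4%) under iMAE-126. For the mean of the iMAE-1 guides 307 were higher (2.01%) and 352 lower (2.31%). Of the genes higher in iMAE-126 in this fit, 27 were also higher under the iMAE-1 guides, 2.80% of the former and 8.79% of the latter, and 30 were lower there. Of those lower 60 were lower under both, 3.77% and 17.0% of the 2 lists, and 52 were higher there. In the test of the difference itself 672 genes had a higher effect of iMAE-126 (4.41%) and 1135 a lower one (7.44%).

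CXCR4 was low under every iMAE guide. It was at 0 to 0.322 CPM in the 8 iMAE-1 libraries, a log2 fold change of -2.93 (adjusted p = 0.0029) against SC replicates 3 to 6, and the difference to iMAE-126 was not called (-0.95 ± 1.06, adjusted p = 0.605). CYTIP went apart. It was at 5.88 to 17.3 CPM in the iMAE-1 libraries against 1.54 to 1.89 in SC replicates 3 to 6 (2.68, adjusted p = 0.00366), so the difference between guides was -3.07 ± 0.69 (adjusted p = 0.0148), although the iMAE-126 level of 7.59 and 6.89 CPM lay within the range of the iMAE-1 libraries. This call was lost without iMAE-126 replicate 1 (adjusted p = 0.0612) or replicate 2 (0.0687), and with all 6 SC replicates as a shared control (-0.61, adjusted p = 0.509). MYH10, nonmuscle myosin IIB, and DKK3, a secreted WNT modulator, also rose under the iMAE-1 guides from a low level in SC replicates 3 to 6. MYH10 was at 3.11 to 4.32 CPM in SC replicates 3 to 6 and at 17.1 to 28.2 in the iMAE-1 libraries, while SC replicates 1 and 2 (31.5 and 32.3 CPM) were already as high as iMAE-126 (28.2 and 27.7 CPM). For CYTIP, MYH10 and DKK3 the fitted difference joined a rise of the iMAE-1 guides over SC replicates 3 to 6 with a smaller or uncalled fall under iMAE-126. With all 6 SC replicates as a shared control it changed sign for MYH10 and DKK3 and was not called for CYTIP. The share of the gap between the 2 sets of SC libraries in these differences was not tested. F3, tissue factor, differed in form. It was at 139 and 128 CPM in SC replicates 1 and 2 and at 77.1 and 72.3 in iMAE-126 (-0.83 ± 0.08, adjusted p = 1.09e-06), about the level of SC replicates 3 to 6 (76.2 to 82.6 CPM), and at 210 to 280 in the iMAE-1 libraries, where it rose by 1.62.

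MMP7 and IFI27 were higher under iMAE-126 and lower or not called under the iMAE-1 guides. MMP7 was at 0.816 to 7.30 CPM in the iMAE-1 libraries, and the difference between guide effects was 4.20 ± 0.79 (adjusted p = 0.00701). For IFI27 the iMAE-1 effect was -1.72 (adjusted p = 0.000763) and the difference 3.45 ± 0.47 (adjusted p = 0.000449). Over the interferon list 26 of 39 members had a higher effect of iMAE-126 and none a lower one, with a median difference of 0.94, and 11 members were lower under the iMAE-1 guides. Over the mitosis list 24 of 30 had a lower effect of iMAE-126, with a median difference of -0.53, and no member was called under the iMAE-1 guides. For YAP and TAZ targets 13 of 21 had a lower effect, for heat shock proteins 7 of 16, and for NF-kB targets 9 of 25. CXCL8 differed by -1.99 ± 0.24 (adjusted p = 0.000145) and CTGF by -1.28 ± 0.13 (adjusted p = 9.39e-06). DHRS3, the second largest certain rise, was not called in the difference (2.52 ± 0.90, adjusted p = 0.0956), with 4.43 to 30.8 CPM over the iMAE-1 libraries.

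**Figure D5:**
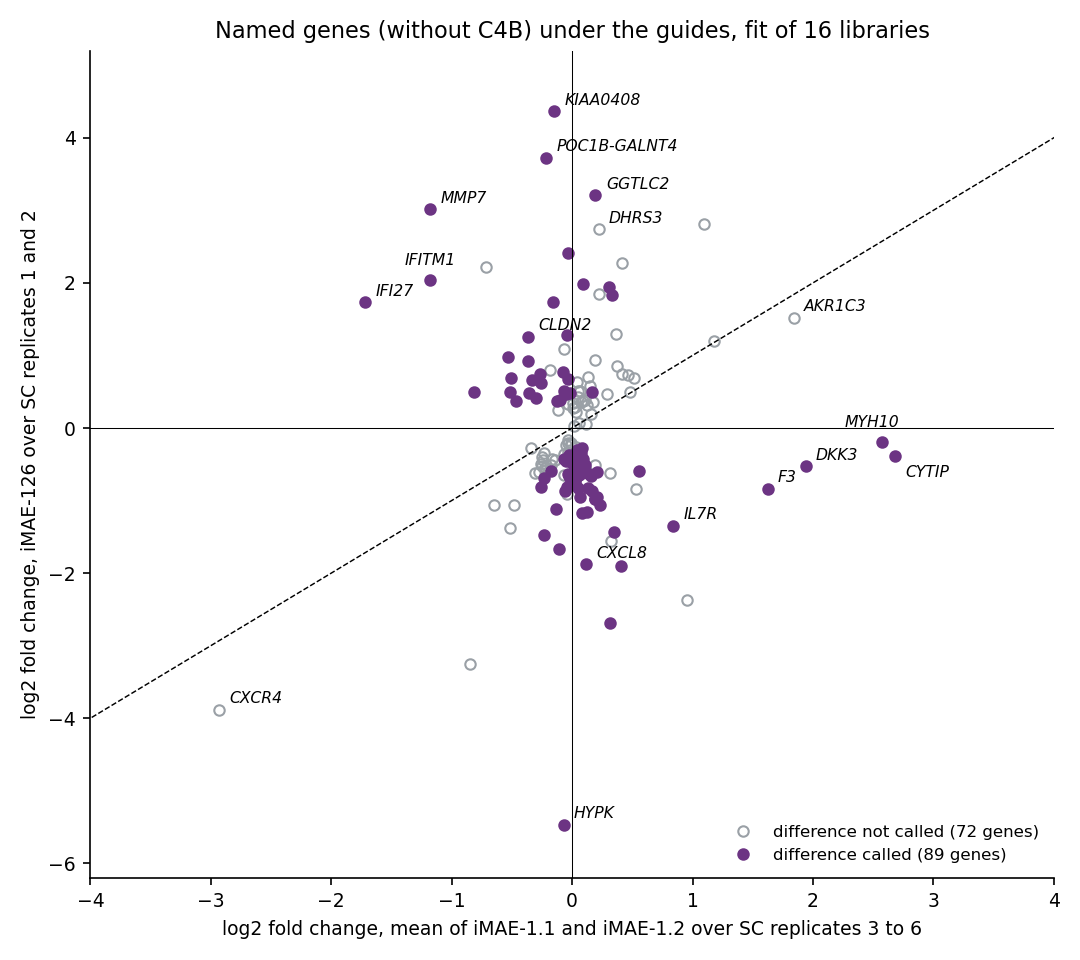
Log2 fold change of 161 named genes under iMAE-126 against SC replicates 1 and 2 (y axis) and under iMAE-1.1 and iMAE-1.2 on average against SC replicates 3 to 6 (x axis), both from the fit of 16 libraries; C4B is left out and the dashed line marks equal effects. Filled points are the 89 genes whose effects differed in the test of the difference; CXCR4 lies low on both axes, CYTIP and MYH10 far right near 0 on the y axis, and MMP7 and IFI27 at upper left.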

How the data were processed

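Stranded libraries of polyadenylated RNA were made from cells at 80% confluence, per the labels' protocols. Bowtie2, RSEM and the hg19 build appear in the submitters' processing notes; versions and settings were not given in the sources at hand. Each deposited expected count is an RSEM estimate by the authors, per the file headers, and need not be whole when several genes share reads. The deposited TPM values were computed by the authors with RSEM, per the file headers, and served as an alternative only. In the deposited tables of 25343 gene symbols, 27.2% to 30.9% of the expected counts of the 16 libraries used were not whole.

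After rounding, expected counts went into edgeR 4.0.16 under R 4.3.3 (TMM factors, filterByExpr with a minimum count of 10, robust quasi-likelihood fit, Benjamini-Hochberg adjustment over all genes tested). The first fit held the 4 libraries alone, and the guides were compared in a fit of 16 libraries with SC in 2 groups. Called means an adjusted p under 0.05. CPM were scaled by TMM factors over 16 libraries, which moved the 4 libraries by at most 0.018 (log2) against factors of the 4 alone. Errors are the size of the fold change over the root of the F statistic. Mean chi-square per gene between replicates was 6.40 in SC replicates 1 and 2 and 9.52 in iMAE-126, so no library repeated another.

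Genes were named by a rule: the 10 largest rises and falls with non-overlapping groups and at least 5 CPM, the 5 per direction with the largest CPM difference, up to 4 called members of each of 40 lists with at least 3 called, 7 genes in every case, and the 5 per direction with the largest difference between guides. Other list members, and the 4 promoters and their motifs, were chosen after their values were seen. The comparison, the choice of SC replicates 1 and 2 and the lists were made with earlier results of these data known. Symbols were matched to RefSeq for promoters and overlaps only, since its build differs from hg19. Alternatives were RLE factors, DESeq2 1.42.0, other count minima, limma 3.58.1 on log2(TPM + 1) of genes with a mean TPM of at least 1, an offset for gene length, a replicate block, other SC controls, the spread of 16 libraries and each library left out; crossed replicate numbers, list counts by setting and the members that keep a call were added after seeing the data. A few members of the lists are counted but not reported here by name. The method was tested on simulated data. Tables and figures were made with Python 3.11.15, pandas 2.3.3, numpy 2.4.6 and matplotlib 3.10.9.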

Additional observations from a re-analysis of the deposited data

Results flagged for a closer look

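The effects of iMAE-126 and of the iMAE-1 guides differed for the 10 genes below in a test of the difference itself, in a fit of 16 libraries in which each guide had its own SC controls. On the log2 scale the effect of iMAE-126 was higher by 4.51 for KIAA0408, 4.20 for MMP7, 3.94 for POC1B-GALNT4, 3.45 for IFI27 and 3.02 for GGTLC2. It was lower by -5.40 for HYPK, -3.07 for CYTIP, -2.76 for MYH10, -2.46 for DKK3 and -2.46 for F3. KIAA0408, POC1B-GALNT4, HYPK and GGTLC2 share reads with overlapping or near-identical genes, and HYPK was at 27.5 and 47.3 CPM in SC replicates 1 and 2 and at 2.19 and 0 in iMAE-126. When single libraries were left out, the call of the difference was lost for CYTIP without iMAE-126 replicate 1 (adjusted p = 0.0612) or replicate 2 (0.0687), for POC1B-GALNT4 without SC replicate 2 (0.0567) or iMAE-126 replicate 1 (0.0536), and for GGTLC2 without SC replicate 1 (0.0656). With all 6 SC replicates as a shared control 5 of the 10 changed sign and CYTIP was no longer called.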

How the results depend on the processing

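The direction of the comparison of 4 libraries depended mainly on which SC libraries served as controls. The 3636 calls became 6846 with SC replicates 3 to 6 and 2362 with all 6 SC replicates, and 304 had a log2 fold change of at least 1 in size. They ranged from 2197 (without iMAE-126 replicate 1) to 4137 (without SC replicate 1) when 1 library was left out, where the spread of the lone library is taken from the other group. With the spread of 16 libraries 37 of 158 named genes lost the call with their sign unchanged. With all 6 SC replicates 58 did so and with SC replicates 3 to 6 32 did, apart from those that changed sign. Some of the 158 were not called in the first fit. The other settings gave 2554 (spread of 16 libraries) to 4140 (replicate block). Medians of 19 of 40 lists changed sign with SC replicates 3 to 6, 14 with all 6 and 4 with the gene length offset. Depth limits genes such as CXCR4, CSF2 and MMP19, whose groups hold few counts.

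With SC replicates 3 to 6 as controls the sign of 52 named genes turned, on the log2 scale to GGTLC2 -1.62, C18orf32 -1.31, EGR1 -1.12, KIAA0408 -1.06, POC1B-GALNT4 -0.87, PAX8 -0.70, HOXB3 -0.69, SNHG8 -0.67, SNHG5 -0.67, HOXD9 -0.56, VHL -0.54, RPL38 -0.50, HOXC10 -0.44, RPL37 -0.34, LSS -0.27, COX7C -0.21, CCNE1 -0.17, UQCRQ -0.15, RPS28 -0.14, NDUFA1 -0.11, IFI27 -0.10, NDUFA2 -0.044 and SREBF1 -0.021, and to PLK1 0.0068, HSPA1A 0.0088, FZD6 0.012, VIM 0.025, FLNA 0.054, EDEM1 0.077, CENPE 0.13, TYRO3 0.13, IGFBP1 0.18, ITGB8 0.26, PGAM1 0.29, LOX 0.29, BIVM-ERCC5 0.33, MGAT5 0.33, HYOU1 0.34, ENO1 0.36, ZCCHC5 0.36, FZD7 0.42, HK1 0.42, AXL 0.44, GALNT5 0.49, MET 0.53, FZD1 0.56, SEL1L 0.65, BMPR2 0.69, COL6A3 0.95, CYTIP 2.07, DKK3 2.16 and MYH10 2.94. With all 6 SC replicates 26 turned, to GGTLC2 -1.04, C18orf32 -0.76, EGR1 -0.68, KIAA0408 -0.47, SNHG5 -0.43, SNHG8 -0.37, HOXB3 -0.33, RPL38 -0.28, POC1B-GALNT4 -0.28, HOXD9 -0.24, RPL37 -0.14, HOXC10 -0.10, LSS -0.082, COX7C -0.038 and RPS28 -0.013, and to HYOU1 0.10, FZD7 0.10, HK1 0.11, PGAM1 0.12, MET 0.12, ENO1 0.14, BMPR2 0.17, SEL1L 0.18, FZD1 0.19, COL6A3 0.33 and DKK3 0.65.

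The 1807 calls of the difference between guides became 5758 with all 6 SC replicates as a shared control, where KIAA0408 turned to -0.90, POC1B-GALNT4 to -0.65, GGTLC2 to -1.80, MYH10 to 0.36 and DKK3 to 0.22. Leaving out 1 library gave 672 (without iMAE-126 replicate 1) to 2144 (without iMAE-1.2 replicate 2), with 676 without SC replicate 2 and 764 without iMAE-126 replicate 2. Same-numbered libraries did not deviate together (correlation -0.018 over the 4 libraries, and over 0.1 in 1 of 18 pairs of the 16), so the numbers were not taken as pairs. Over the 18 pairs the correlation ran from -0.485 to 0.165. What lay behind the negative values was not tested. With the replicate block there were 4140 calls in the comparison of 4 libraries, 3590 together with the length offset, and 355 in the difference between guides, where the calls of CYTIP (adjusted p = 0.157), GGTLC2 (0.0779) and MMP7 (0.0702) were lost. Crossed numbers, an alternative chosen after seeing the data, gave 3804.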

Other observations

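Along chromosome 14 a run of neighbouring genes was lower, a pattern picked out after the values were seen and given with no test. Among 14513 tested genes placed in RefSeq order, the window of 31 consecutive tested genes with the most calls that were lower ran from SAV1 to DLGAP5. It held 17 genes called lower and 1 higher, with a median log2 fold change of -0.37, against a median of 4 lower calls over 13803 overlapping windows. With SC replicates 3 to 6 as controls 14 of the 31 were lower and 5 higher, with a median of -0.29, and leaving out single libraries gave 11 to 15 lower. The window richest in genes called higher, on chromosome 11 from PSMD13 to PNPLA2, held 15 higher and 1 lower, with a median of 0.28.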
